A study of Arabidopsis thaliana with 9 samples.

Results

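The roots of 2 transgenic Arabidopsis thaliana lines that carry forms of the transcription factor ERF13 were compared directly with each other by RNA sequencing. They are erf13-3, labelled an SRDX line, and 35S:ERF13:MYC, labelled an overexpression line. The members are 6 of the 9 libraries of the study, 3 for each line, and no wild-type (WT) library entered a fold change or a test. All roots came from 9-day-old seedlings grown on half-strength Murashige and Skoog medium, and no other treatment is labelled. The label of erf13-3 is not uniform: the sample titles give erf13-3, the genotype field gives an SRDX line, and the deposited comparison table heads its columns E13SRDX. No label names the promoter that drives the SRDX fusion, says whether each line is a single transformant, or says whether the 3 libraries of a line came from separate pools of plants, so the p-values below rest on the variation among these libraries alone, part of which may be technical.

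ERF13 belongs to group IX of the ethylene response factors, plant transcription factors that bind a GC-rich element known as the GCC box in the promoters of stress and defence genes. The 35S promoter is strong and active in most plant tissues. SRDX is a short repression domain that, fused to a factor, turns it into a repressor of the genes it binds. KCS16, a 3-ketoacyl-CoA synthase gene, encodes an enzyme of the family that carries out the first step of very-long-chain fatty acid elongation, whose products go into cuticle waxes, suberin and membrane lipids.

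The element that such factors bind was looked for in promoters, and the 2 directions of difference did not hold it equally. The core of the GCC box was taken as GCCGCC and read on both strands of the 250 bases before each annotated start, in RefSeq sequence of build TAIR10.1. A match that overlapped another was counted as part of the same promoter. The promoters of 4 genes that were lower in erf13-3 are shown with the core in capitals (GGCGGC where it lies on the other strand), each 5′ to 3′ in the direction of its gene. They are the 4 genes with an annotated symbol and the largest fall among those at least 4-fold lower with a core, and were chosen after their values were seen. The promoter of ORA59 lies at chr1:1882657-1882906 on the plus strand, that of GSTU13 at chr1:9425030-9425279 on the plus strand, that of FLS5 at chr5:25462569-25462818 on the minus strand and that of OSM34 at chr4:7026225-7026474 on the minus strand.
ORA59: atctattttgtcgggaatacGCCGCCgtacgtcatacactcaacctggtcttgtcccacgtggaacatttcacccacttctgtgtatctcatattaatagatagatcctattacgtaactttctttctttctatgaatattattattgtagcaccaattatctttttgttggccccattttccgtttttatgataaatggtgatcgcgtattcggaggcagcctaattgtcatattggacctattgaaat
GSTU13: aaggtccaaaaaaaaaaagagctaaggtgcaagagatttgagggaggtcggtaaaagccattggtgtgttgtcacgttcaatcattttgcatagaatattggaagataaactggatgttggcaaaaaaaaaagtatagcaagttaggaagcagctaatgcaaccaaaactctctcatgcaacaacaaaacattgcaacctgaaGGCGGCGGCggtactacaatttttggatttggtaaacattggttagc
FLS5: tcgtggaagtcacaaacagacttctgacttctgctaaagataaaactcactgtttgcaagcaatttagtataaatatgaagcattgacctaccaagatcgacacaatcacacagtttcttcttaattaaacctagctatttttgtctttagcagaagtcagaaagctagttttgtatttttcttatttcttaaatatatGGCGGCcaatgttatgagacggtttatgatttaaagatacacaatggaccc
OSM34: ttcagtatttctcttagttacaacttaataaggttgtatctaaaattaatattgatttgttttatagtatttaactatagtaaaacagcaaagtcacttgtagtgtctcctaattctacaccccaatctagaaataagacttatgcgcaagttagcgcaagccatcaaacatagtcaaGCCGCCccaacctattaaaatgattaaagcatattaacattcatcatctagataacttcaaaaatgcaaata
In GSTU13 the capitals cover 2 overlapping matches, and in the others 1 match.

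ORA59, an ethylene and jasmonate responsive ERF factor of defence, stood at 1.06, 1.38 and 1.06 FPKM (fragments per kilobase of transcript, scaled to library depth) in the 3 libraries of 35S:ERF13:MYC and at 0, 0.08 and 0.15 FPKM in those of erf13-3. GSTU13, a tau-class glutathione S-transferase, measured 335.4, 311.1 and 306.1 FPKM in 35S:ERF13:MYC against 26.9, 27.0 and 30.8 FPKM in erf13-3. FLS5, annotated as a flavonol synthase, was at 260.5, 259.5 and 281.9 FPKM in 35S:ERF13:MYC and at 25.7, 22.9 and 25.1 FPKM in erf13-3. OSM34, an osmotin-like protein, was at 155.9, 111.8 and 120.8 FPKM against 14.1, 12.1 and 22.9 FPKM. The libraries of the lines did not overlap for any of the 4 genes, which were chosen for their large fall. The same held for 53.1% of all genes tested. The log2 fold changes of erf13-3 over 35S:ERF13:MYC were -3.79 (SE 0.55, adjusted p = 0.00028), -3.50 (SE 0.09, adjusted p = 5.6e-09), -3.45 (SE 0.08, adjusted p = 2.3e-09) and -2.99 (SE 0.22, adjusted p = 2.4e-06) in that order, by edgeR's quasi-likelihood test with Benjamini-Hochberg adjustment over all genes tested.

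Over all 19515 tested genes with a promoter sequence, 382 (1.96%) held the core. Among the 988 promoters of genes called and at least 2-fold lower in erf13-3, 5.06% of all genes tested, there were 41 (4.15%, exact 95% binomial interval 2.99 to 5.59%), and among the 1626 of genes called and at least 2-fold higher, 8.33% of all genes tested, there were 12 (0.738%, 0.382 to 1.29%). The share went from 6.21% of the genes at least 4-fold lower, through 3.15% of those 2- to 4-fold lower, 2.60% of those lower by less and 2.08% of those without a call, to 0.843%, 0.725% and 0.765% of the genes higher by under 2-fold, 2- to 4-fold and at least 4-fold. The median GC content of the windows was between 30.0% and 32.0% in all 7 classes. The binomial intervals treat promoters as independent draws, which those of neighbouring or related genes need not be. No share was tested against another. Most genes that were lower in erf13-3 had no core in this window, and KCS16 had none. A match is a string in a window and does not show that a factor binds there. The other genes with a core that were at least 4-fold lower included ERF11, an ERF factor with a repression motif, at 4.81 ± 1.11 FPKM (SD, n = 3) in 35S:ERF13:MYC and 1.11 ± 0.11 in erf13-3, and ZAT6, a zinc finger factor of stress responses, at 63.0 ± 5.46 and 13.02 ± 2.18 FPKM. GSTU10 and MAP18, a microtubule-associated protein gene, had a core and were at least 4-fold higher.

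**Figure D1:**
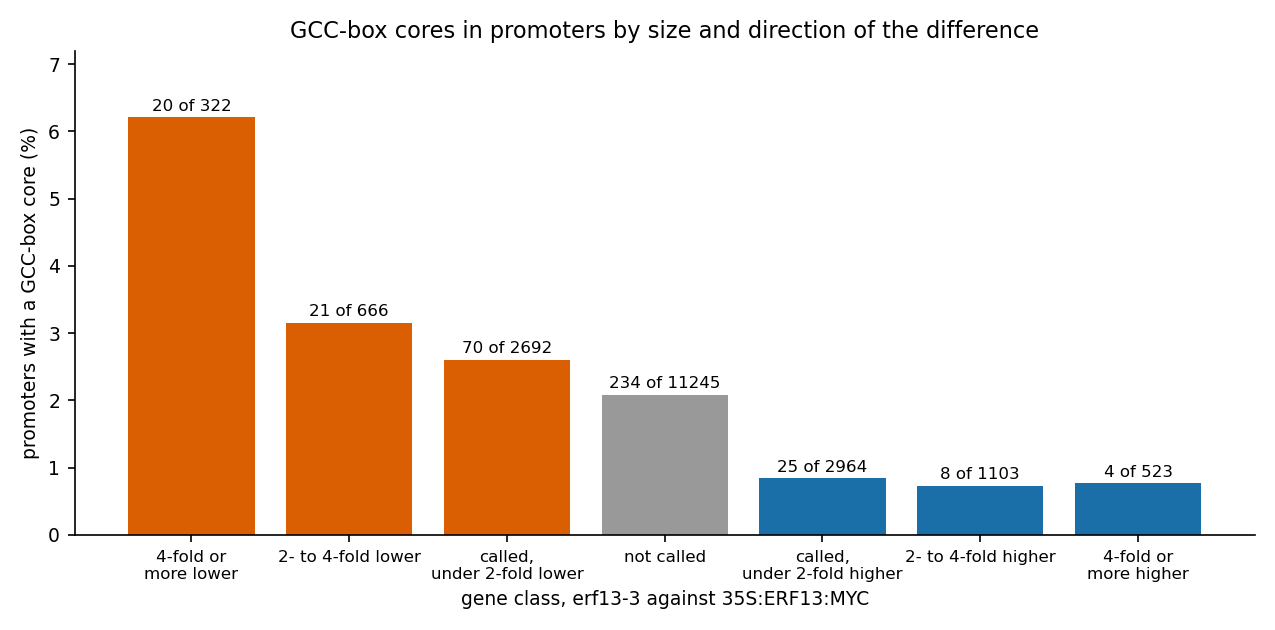
Share of promoters (250 bases before the start) that hold GCCGCC on either strand, in percent, by the size and direction of the difference of erf13-3 from 35S:ERF13:MYC; the numbers over the bars are promoters with the core of all promoters in the class. The bar of genes at least 4-fold lower in erf13-3 stands at 6.21%, that of genes without a call at 2.08%, and the 3 bars of genes higher in erf13-3 at 0.725 to 0.843%.

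The 6 libraries held 12147128 to 12271123 expected counts and listed 21972 to 22240 genes each, so depth was nearly equal between the lines. PYK10, a root beta-glucosidase gene and one of the 7 root markers, all of which had counts, was the most abundant gene in every library. The first principal component separated the lines and held 84.6% of the variance. On the second, with 6.33%, replicate 1 of 35S:ERF13:MYC and replicate 3 of erf13-3 stood apart from the other libraries of their lines. Without the first of these libraries 7737 genes were called, and without the second 7997, against 8272 with all 6.

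Of 19530 genes tested, 8272 (42.4%) differed at an adjusted p under 0.05. In erf13-3 4592 (23.5%) were higher and 3680 (18.8%) were lower. At least 2-fold apart were 1626 higher (8.33%) and 988 lower (5.06%), and at least 4-fold apart 523 higher (2.68%) and 322 lower (1.65%). Across the genes tested, the median of the log2 fold changes was -0.0045, a value that the scaling of the libraries holds near 0. The FPKM values of the lines did not overlap for 10377 genes (53.1%). Counts of genes in the groups below are to be read against these shares, since a call in either direction was common.

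ERF13 itself was high in both lines. It stood at 905.0, 789.4 and 772.9 FPKM in 35S:ERF13:MYC and at 2595, 2711 and 3043 FPKM in erf13-3, while its mean in the WT roots was 1.08 FPKM, given as a level only. Every erf13-3 library was above every library of the overexpressor, and the log2 fold change was 1.75 (SE 0.11, adjusted p = 6.4e-07). Transcripts of a transgene and of the gene in its own place were counted together, and protein was not measured. KCS16 was at 0.31, 0.54 and 0.58 FPKM in 35S:ERF13:MYC, 1.47 FPKM on average in WT and 4.07, 4.36 and 3.65 FPKM in erf13-3. Its direct log2 fold change was 3.06 (SE 0.21, adjusted p = 1.6e-06), an 8.31-fold higher level in erf13-3.

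**Figure D2:**
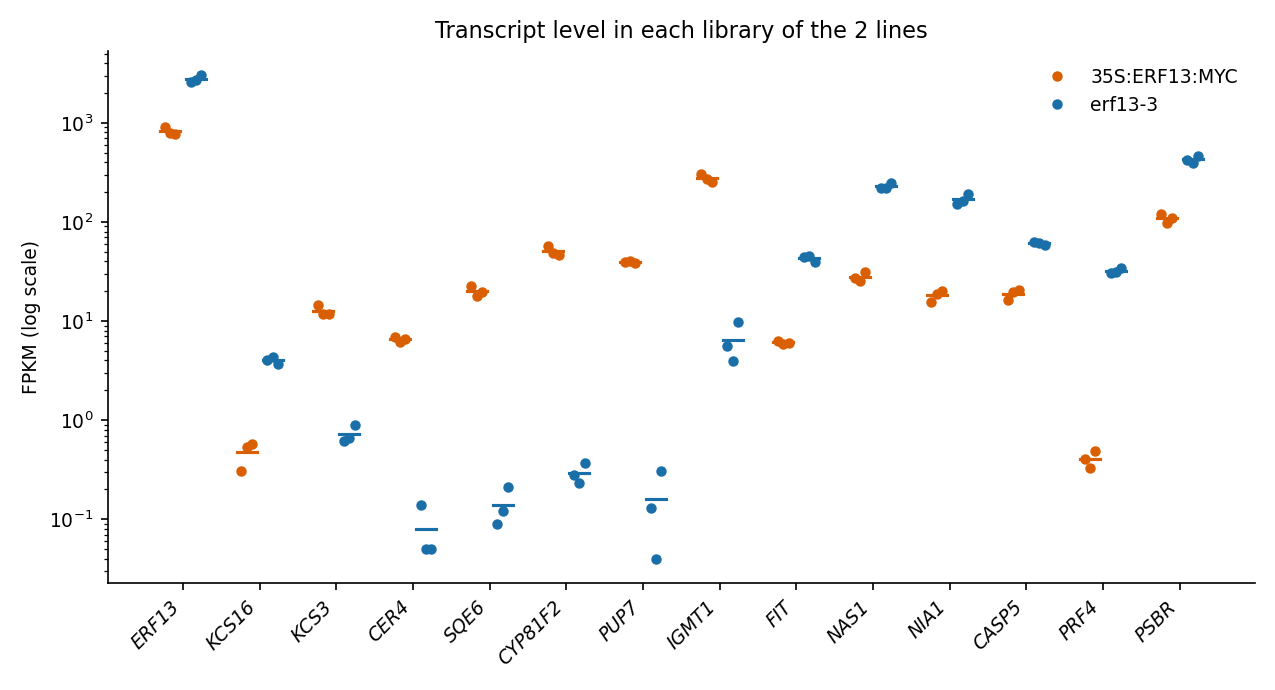
Level of 14 genes in each of the 6 libraries, in FPKM on a log scale; each point is a library and each short bar the mean of the 3 libraries of a line. ERF13 lies above 700 FPKM in every library, KCS3, CER4, SQE6, CYP81F2, PUP7 and IGMT1 lie lower in erf13-3, and the other genes lie higher there, with no overlap between the lines.

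KCS16 was one of 12 elongase genes higher in erf13-3 of 18 tested, with 2 lower and a list median log2 fold change of 0.43. KCS17, of the same synthase family, was at 1.09, 1.30 and 0.90 FPKM in 35S:ERF13:MYC and 3.74, 3.84 and 3.55 FPKM in erf13-3 (fitted log2 ratio 1.74, SE 0.17, adjusted p = 1.7e-05). KCS3 went the other way, from 14.4, 11.9 and 11.8 FPKM in 35S:ERF13:MYC to 0.62, 0.66 and 0.89 FPKM in erf13-3 (fitted log2 ratio -4.14, SE 0.18, adjusted p = 7.0e-08). The 3 other enzymes of the elongation cycle, KCR1, PAS2 and CER10, were higher by 0.44, 0.25 and 0.47 on the log2 scale. KCR2, a ketoacyl-CoA reductase outside the list, had 54, 20 and 28 counts in 35S:ERF13:MYC and 1, 0 and 0 counts in erf13-3, a ratio of 102 with a 95% counting interval of 17.8 to 4055. Synthase genes of the family thus differed in both directions between these lines, and the fold change of KCS3 was larger in size than that of KCS16, a difference that was not tested.

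Genes of the cuticle and wax list split, with 8 higher and 4 lower of 14 tested and a median of 0.59. CER4, the fatty acyl-CoA reductase that makes primary alcohols of waxes, was at 6.95, 6.10 and 6.54 FPKM in 35S:ERF13:MYC and at 0.14, 0.05 and 0.05 FPKM in erf13-3, or 3, 1 and 1 counts (log2 fold change -6.32, SE 0.27, adjusted p = 8.1e-08). GPAT4, a glycerol-3-phosphate acyltransferase of cutin synthesis, was also lower, at 89.5, 87.9 and 87.7 FPKM against 34.9, 32.8 and 36.2 FPKM. LACS2, a long-chain acyl-CoA synthetase, was higher, at 14.9, 15.1 and 15.8 FPKM against 35.2, 33.9 and 32.2 FPKM. CER1, of alkane synthesis, was higher by 1.66 (SE 0.16) on the log2 scale.

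Both barriers of the endodermis gave more calls toward erf13-3. Of 15 genes of the Casparian strip, the lignin band that seals the endodermal wall, 13 were higher and 1, the NADPH oxidase RBOHF, was lower, with a median log2 fold change of 1.04. CASP5, a scaffold protein of the strip, was at 16.2, 19.6 and 20.5 FPKM in 35S:ERF13:MYC and 63.3, 61.1 and 58.6 FPKM in erf13-3 (fitted log2 ratio 1.69, SE 0.09, adjusted p = 3.7e-07). PER64, a peroxidase of the strip, was higher by 1.30 (SE 0.09). MYB36, the factor that switches on the strip's genes, was at 11.2, 11.5 and 13.2 FPKM against 26.2, 28.8 and 23.9 FPKM. CASP1 and CASP2 are close copies whose reads may be shared. In a bulk sample, more cells of a type and more RNA per cell cannot be told apart.

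In the suberin list, 13 of 20 genes were higher and 3 lower, with a median of 0.51, which was a smaller shift than in the Casparian list. CYP86B1, a hydroxylase of very-long-chain suberin acids, was at 25.6, 24.2 and 27.2 FPKM in 35S:ERF13:MYC and 46.3, 44.7 and 45.8 FPKM in erf13-3. The transporter gene ABCG2 was at 24.4, 21.2 and 23.2 FPKM against 39.5, 39.1 and 40.0 FPKM. Among the 3 lower genes was FAR1 (AT5G22500), a reductase that makes suberin alcohols, at 18.0, 14.3 and 13.4 FPKM against 6.39, 6.43 and 5.95 FPKM (log2 fold change -1.30, SE 0.12, adjusted p = 1.4e-05). Of the other acyl-CoA reductases of its family, CER4 was lower as well, FAR4 had no call at a log2 fold change of 0.02, and FAR5 was higher by 0.26.

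Of the 11 group IX ERF genes tested, ERF13 included, 6 were higher in erf13-3 and 2 lower, with a median of 0.99. ERF2 was at 1.06, 0.50 and 0.12 FPKM in 35S:ERF13:MYC, which spread widely, and 8.66, 7.18 and 7.22 FPKM in erf13-3 (fitted log2 ratio 3.74, SE 0.34, adjusted p = 1.0e-05). ERF1A was at 18.1, 15.1 and 15.3 FPKM against 43.8, 40.1 and 43.5 FPKM. The 2 lower members were ORA59, above, and ERF15 (log2 fold change -1.98, SE 0.31, adjusted p = 0.00044). Of the 21 tested genes with ERF and a number as annotated symbol or synonym, 7 were higher, 5 were lower and 9 had no call. Group IX members such as ERF13 and ERF2 are among them. ERF1A, called higher, and ORA59, called lower, were not found under such a name and are left out of this count. The 5 lower genes were ERF4, ERF8, ERF9, ERF11 and ERF15, named after their values were seen. ERF4 went from 105.2, 94.1 and 78.6 FPKM in 35S:ERF13:MYC to 38.7, 25.3 and 35.8 FPKM in erf13-3. ERF8 went from 17.4, 16.99 and 15.3 FPKM to 4.56, 3.99 and 3.83 FPKM, ERF9 had a log2 fold change of -1.31, and ERF11 is given above. These 4 encode repression motifs, as do ERF3, ERF7 and ERF12, which were not lower, with log2 fold changes of -0.07 (no call), 0.36 (called higher) and 0.04 (no call). RAP2.9, another AP2/ERF factor, had 130, 98 and 111 counts in 35S:ERF13:MYC and 0, 0 and 1 in erf13-3.

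**Figure D3:**
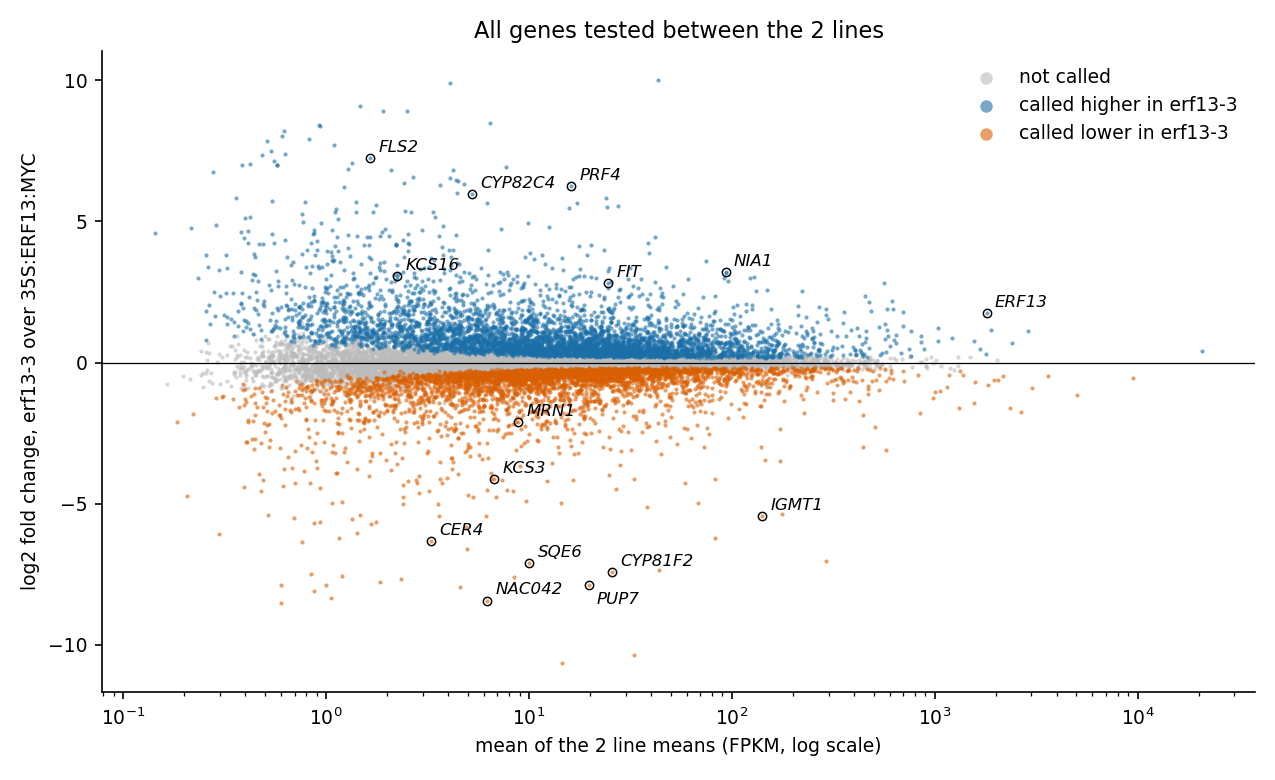
Each of the 19530 genes tested by its level (mean of the 2 line means, in FPKM on a log scale) and its log2 fold change of erf13-3 over 35S:ERF13:MYC; colours mark the direction of calls and circles mark genes named in the text. ERF13 is the labelled gene of highest level and lies at 1.75, and the points include 29 genes without a count in 1 line, for which the fitted value is no bound.

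The iron uptake list was nearly evenly split, with 9 higher and 10 lower of 22 tested, and regulators, transporters and nicotianamine synthases stood on both sides. FIT, the bHLH factor that governs iron uptake in the root epidermis, was at 6.32, 5.92 and 6.02 FPKM in 35S:ERF13:MYC and 44.8, 45.5 and 39.1 FPKM in erf13-3 (fitted log2 ratio 2.80, SE 0.08, adjusted p = 8.7e-09). IRT1, the iron transporter, was at 1.6, 3.66 and 6.51 FPKM against 28.2, 28.4 and 30.6 FPKM, and FRO2, the ferric reductase, at 1.38, 2.41 and 2.14 FPKM against 9.47, 8.56 and 11.2 FPKM. NAS1, a nicotianamine synthase, was at 27.1, 25.5 and 31.3 FPKM against 222.1, 220.1 and 244.4 FPKM (log2 fold change 3.02, SE 0.10, adjusted p = 1.0e-08). NAS2, MTP3, AHA2, FRD3 and BHLH101 made up the rest of the 9. Lower were BHLH38 and BHLH100, bHLH partners of FIT, PYE and BTS, regulators of the iron response, the transporters NRAMP1, OPT3 and IREG2, NAS4 and the loci AT1G47400 and AT2G30766, which have no annotated symbol. NRAMP1 was at 53.5, 51.7 and 55.4 FPKM in 35S:ERF13:MYC and at 15.0, 10.9 and 14.9 FPKM in erf13-3. Of the 5 genes of coumarin synthesis tested, whose products mobilise iron, 2 were higher and 1, BGLU42, was lower, with a median of 0.09. F6'H1, the first enzyme of the branch, was at 14.6, 13.1 and 13.7 FPKM against 66.7, 78.4 and 84.1 FPKM, and CYP82C4, which makes sideretin, at 0.04, 0.09 and 0.36 FPKM against 10.1, 9.61 and 11.1 FPKM.

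Of 15 nitrate genes tested, 10 were higher in erf13-3 and 1 lower, with a median of 0.71. NIA1, a nitrate reductase, was at 15.4, 18.7 and 20.2 FPKM in 35S:ERF13:MYC and 151.5, 162.7 and 191.3 FPKM in erf13-3 (fitted log2 ratio 3.21, SE 0.13, adjusted p = 5.1e-08). NRT3.1, the partner protein of the high-affinity nitrate transporters, was at 10.2, 9.04 and 12.1 FPKM against 33.4, 34.1 and 49.1 FPKM. The 1 lower gene was HRS1, a factor that links nitrate and phosphate responses, at 61.5, 60.6 and 58.3 FPKM against 22.3, 25.6 and 29.4 FPKM.

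The phosphate list gave no common direction, with 7 higher and 4 lower of 20 tested and a median of 0.08. The phosphate transporter PHT1;1, which has a near copy in PHT1;2, was at 92.7, 81.1 and 79.1 FPKM in 35S:ERF13:MYC and 296.5, 309.5 and 416.0 FPKM in erf13-3. PHO1, which loads phosphate into the xylem, was lower, at 202.8, 209.8 and 207.5 FPKM against 91.6, 81.3 and 77.4 FPKM (log2 fold change -1.32, SE 0.07, adjusted p = 2.4e-07). MGD2, of galactolipid synthesis, was higher by 1.77 (SE 0.17).

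Water channel genes were among the most abundant that differed, again in both directions, with 10 higher and 7 lower of 21. TIP1;2, a tonoplast aquaporin, was at 1192, 1127 and 1177 FPKM in 35S:ERF13:MYC and 2339, 2430 and 3110 FPKM in erf13-3, and its promoter was the 1 of 110 examined for the named genes that held a GCC core. PIP1;1, at the plasma membrane, was at 715.0, 679.4 and 697.5 FPKM against 190.6, 168.4 and 224.9 FPKM (log2 fold change -1.85, SE 0.11, adjusted p = 6.4e-07). Its relative PIP1;5 went the other way, at 113.7, 112.7 and 115.9 FPKM against 316.6, 334.8 and 393.2 FPKM. NIP1;1 was higher by 1.35 (SE 0.07).

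Sterol and triterpene genes differed gene by gene. SQE6, one of the squalene epoxidase family, was at 22.4, 17.9 and 19.5 FPKM in 35S:ERF13:MYC and at 0.09, 0.12 and 0.21 FPKM in erf13-3, where it had 2, 3 and 5 counts (log2 fold change -7.12, SE 0.22, adjusted p = 8.7e-09). SQE4, its neighbour in the family, was lower as well, at 15.3, 16.7 and 16.5 FPKM against 1.43, 2.28 and 2.56 FPKM, and SQE3 was higher by 0.95 (SE 0.10). SQE4 to SQE6 are close in sequence, and reads may be shared among them. In the root triterpene clusters, MRN1, the marneral synthase, was at 13.3, 14.8 and 14.8 FPKM against 2.92, 3.42 and 3.75 FPKM, while CYP705A12 of the same cluster was at 10.4, 10.9 and 11.8 FPKM against 36.1, 38.1 and 43.5 FPKM. THAD, a desaturase of the thalianol cluster, was at 136.0, 140.3 and 136.4 FPKM against 370.4, 439.8 and 524.7 FPKM.

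Genes of indole glucosinolates and camalexin were lower in erf13-3 in 13 of 21 and higher in 3, with a median of -0.53. CYP81F2, which hydroxylates the indole ring in the path to 4-methoxy indole glucosinolate, was at 56.9, 49.0 and 46.7 FPKM in 35S:ERF13:MYC and 0.28, 0.23 and 0.37 FPKM in erf13-3 (fitted log2 ratio -7.42, SE 0.17, adjusted p = 2.3e-09). IGMT1, the methyltransferase that acts after it, was at 302.6, 268.2 and 254.8 FPKM against 5.54, 3.99 and 9.68 FPKM (log2 fold change -5.43, SE 0.24, adjusted p = 8.9e-08), with reads that a near copy, IGMT2, could share. MYB51, a regulator of the pathway, was at 18.3, 16.0 and 16.9 FPKM against 4.81, 4.70 and 6.98 FPKM. CYP71B15, the last enzyme of camalexin synthesis, was at 5.21, 4.25 and 3.52 FPKM against 0.37, 0.46 and 0.41 FPKM, and NAC042, a factor that regulates camalexin genes, had 175, 168 and 128 counts in 35S:ERF13:MYC and 1, 0 and 0 in erf13-3. PEN3, an ABCG transporter of defence, was among the lower genes of its family, at 77.1 FPKM on average against 16.8 FPKM. The 3 higher members were CYP81F3, CYP71A12 and PEN2. Aliphatic glucosinolate genes were less separated, with 4 lower and 2 higher of 14 tested, and MAM3, which elongates the methionine chain, lower at a log2 fold change of -0.69 (SE 0.07).

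No flavonoid gene was called higher. Of 10 tested, 6 were lower and 4 were not called, with a median of -0.82. CHS, chalcone synthase, was at 595.1, 474.6 and 459.6 FPKM in 35S:ERF13:MYC and 206.5, 218.0 and 213.0 FPKM in erf13-3 (fitted log2 ratio -1.27, SE 0.10, adjusted p = 4.2e-06). F3H, flavanone 3-hydroxylase, was at 116.0, 103.6 and 97.4 FPKM against 49.3, 47.8 and 42.0 FPKM. CYP75B1, the flavonoid 3′-hydroxylase, was at 11.2, 7.69 and 7.36 FPKM against 1.23, 0.67 and 1.02 FPKM (log2 fold change -3.17, SE 0.24, adjusted p = 2.9e-06). The phenylpropanoid and lignin genes upstream did not share this direction, with 6 higher, 2 lower and 11 without a call of 19. Of these, 4CL1 was higher by 0.86 (SE 0.08), PAL4 by 0.86 (SE 0.09), and CAD5, a cinnamyl alcohol dehydrogenase, was lower at a log2 fold change of -1.43 (SE 0.07). Of 12 xylem secondary wall genes only VND6, a vessel regulator, was called, and it was lower.

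**Figure D4:**
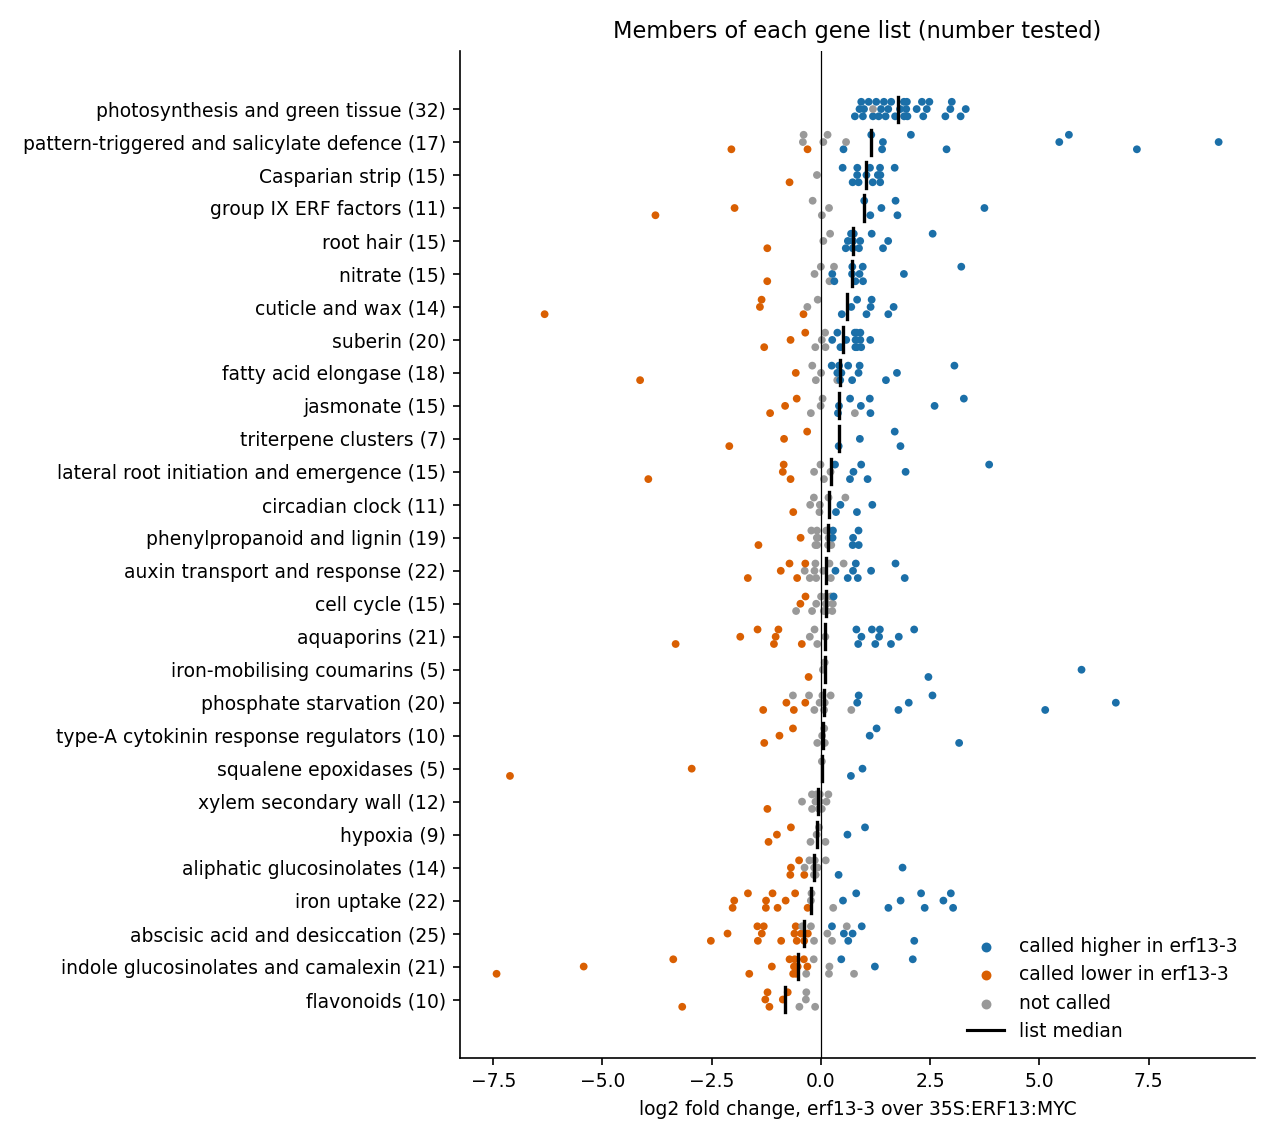
Log2 fold change of erf13-3 over 35S:ERF13:MYC for every tested member of each list, with the number tested in brackets; a point is a gene, its colour the call, and the black bar the list median. Photosynthesis genes lie farthest to the right with a median of 1.75, flavonoids farthest to the left with -0.82, and the iron, aquaporin, triterpene and lateral root lists spread to both sides of 0.

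Abscisic acid and desiccation genes were lower in 13 of 25 and higher in 6, with a median of -0.38. RD29A, a desiccation-induced gene, was at 17.2, 17.7 and 27.4 FPKM in 35S:ERF13:MYC and at 5.46, 5.31 and 3.51 FPKM in erf13-3, and LTI30, a dehydrin gene, at 121.8, 139.8 and 175.5 FPKM against 62.2, 48.0 and 50.4 FPKM. CYP707A1, which breaks abscisic acid down, was the gene of smallest p in the list and was higher, at 5.2, 4.47 and 5.32 FPKM against 21.2, 24.4 and 20.8 FPKM (log2 fold change 2.14, SE 0.10, adjusted p = 1.2e-07). PYL3, an abscisic acid receptor gene outside the list, had no count in any library of 35S:ERF13:MYC and 15, 31 and 32 counts in erf13-3, at least 8.67-fold higher against a floor of 3 counts per library.

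Among 22 auxin transport and response genes, 8 were higher and 5 lower. GH3.6, which conjugates auxin to amino acids, was at 10.1, 10.9 and 10.1 FPKM in 35S:ERF13:MYC and 37.0, 39.2 and 42.0 FPKM in erf13-3 (fitted log2 ratio 1.92, SE 0.09, adjusted p = 1.2e-07), and its relative GH3.17 at 28.3, 29.9 and 33.0 FPKM against 92.5, 106.4 and 100.5 FPKM. IAA2, an auxin-induced repressor gene, was lower, at 52.9, 51.2 and 62.2 FPKM against 17.2, 21.6 and 13.8 FPKM. In the lateral root list 7 were higher and 4 lower of 15 tested. LBD29, a factor of lateral root initiation, was at 2.21, 1.89 and 2.72 FPKM against 9.41, 8.68 and 8.31 FPKM. The polygalacturonase gene PGAZAT, known for cell wall loosening over emerging primordia, was near 0 in 35S:ERF13:MYC, at 0, 0.09 and 0.19 FPKM, and at 1.40, 1.58 and 1.31 FPKM in erf13-3. PLT7, of the PLETHORA factors that act in lateral root primordia, was at 9.88, 7.69 and 7.71 FPKM against 0.80, 0.40 and 0.52 FPKM (log2 fold change -3.95, SE 0.21, adjusted p = 3.2e-07). Its relative PLT5 was lower at a log2 fold change of -0.87, and PLT3 had no call.

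Root hair genes were higher in 12 of 15, with 1 lower and a median of 0.73. RSL4, the bHLH factor that sets hair growth, was at 5.19, 5.0 and 5.69 FPKM in 35S:ERF13:MYC and 13.6, 15.1 and 14.2 FPKM in erf13-3 (fitted log2 ratio 1.42, SE 0.11, adjusted p = 3.2e-06). PRP1, a proline-rich wall protein of hairs, was at 25.0, 26.6 and 28.4 FPKM against 63.8, 72.9 and 96.3 FPKM, and XTH26, a wall-modifying enzyme, was higher by 2.56 (SE 0.24). The 1 lower gene was RSL2. Type-A response regulators, which damp cytokinin signalling, split into 3 higher and 3 lower of 10: ARR7, ARR8 and ARR9 were lower and ARR15, ARR16 and ARR17 higher.

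Genes of pattern-triggered and salicylate defence were higher in 10 of 17 and lower in 2, with a median of 1.15. FLS2, the receptor for bacterial flagellin, was nearly silent in 35S:ERF13:MYC, with 2, 0 and 1 counts, and had 143, 183 and 182 counts in erf13-3, a ratio of 169.9 with a 95% counting interval of 57.8 to 826.4. FMO1, whose enzyme makes the immune signal N-hydroxypipecolic acid, had no count in any library of 35S:ERF13:MYC and 71, 64 and 71 counts in erf13-3, at least 22.9-fold higher. WRKY29 was at 1.23, 1.07 and 1.06 FPKM against 7.45, 8.46 and 8.99 FPKM, and WRKY53 at 2.48, 2.39 and 2.80 FPKM against 9.66, 11.3 and 11.3 FPKM (log2 fold change 2.06, SE 0.14, adjusted p = 1.3e-06). FRK1, a marker gene of flagellin signalling, was at 0.12, 0.03 and 0 FPKM against 2.77, 3.35 and 2.17 FPKM. The 2 lower genes were WRKY54 and CERK1, the chitin receptor. In the jasmonate list 8 were higher and 3 lower of 15. AOC1 and AOC2, allene oxide cyclases in a run of near copies, were higher by 2.60 (SE 0.21) and 3.27 (SE 0.25), and JAZ3, a repressor of the pathway, by 1.13 (SE 0.09).

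Photosynthesis genes lay almost wholly on 1 side: 31 of 32 were called higher in erf13-3, none lower, with a median log2 fold change of 1.75. Summed over the list, the level was 674.2, 550.7 and 510.8 FPKM in 35S:ERF13:MYC and 1922, 1869 and 2158 FPKM in erf13-3. PSBR, of photosystem II, was at 119.7, 98.2 and 109.2 FPKM against 425.8, 393.4 and 466.0 FPKM (log2 fold change 1.97, SE 0.10, adjusted p = 2.1e-07), RCA, rubisco activase, at 42.1, 37.0 and 31.0 FPKM against 129.7, 126.5 and 132.3 FPKM, and LHCA3, of the photosystem I antenna, at 19.1, 19.4 and 14.7 FPKM against 66.0, 66.1 and 76.8 FPKM. The 1 gene without a call, LHCB1.1, belongs to a group of close copies. Of 7 shoot and guard cell markers, 5 had a count in these libraries and 2, FAMA and CLV3, were at 0. Their summed level was 18.3 to 21.0 FPKM in 35S:ERF13:MYC and 14.5 to 18.4 FPKM in erf13-3, nearly all of it AS1, which roots also express and which was not called. STM and MUTE were at or below 0.24 FPKM in every library, KAT1 at or below 0.16, and MYB60 was at 0.61 to 1.48 FPKM in 35S:ERF13:MYC against 0.14 to 0.21 in erf13-3. With the other markers near 0 in both lines, the sum says little about shoot tissue. The 7 root markers, 4 higher and 1 lower, summed to 10820 to 12320 FPKM in 35S:ERF13:MYC and 7932 to 8493 FPKM in erf13-3, most of it PYK10, which was lower at a log2 fold change of -0.53. Whether green cells of the root or attached shoot tissue add to the list was not tested.

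**Figure D5:**
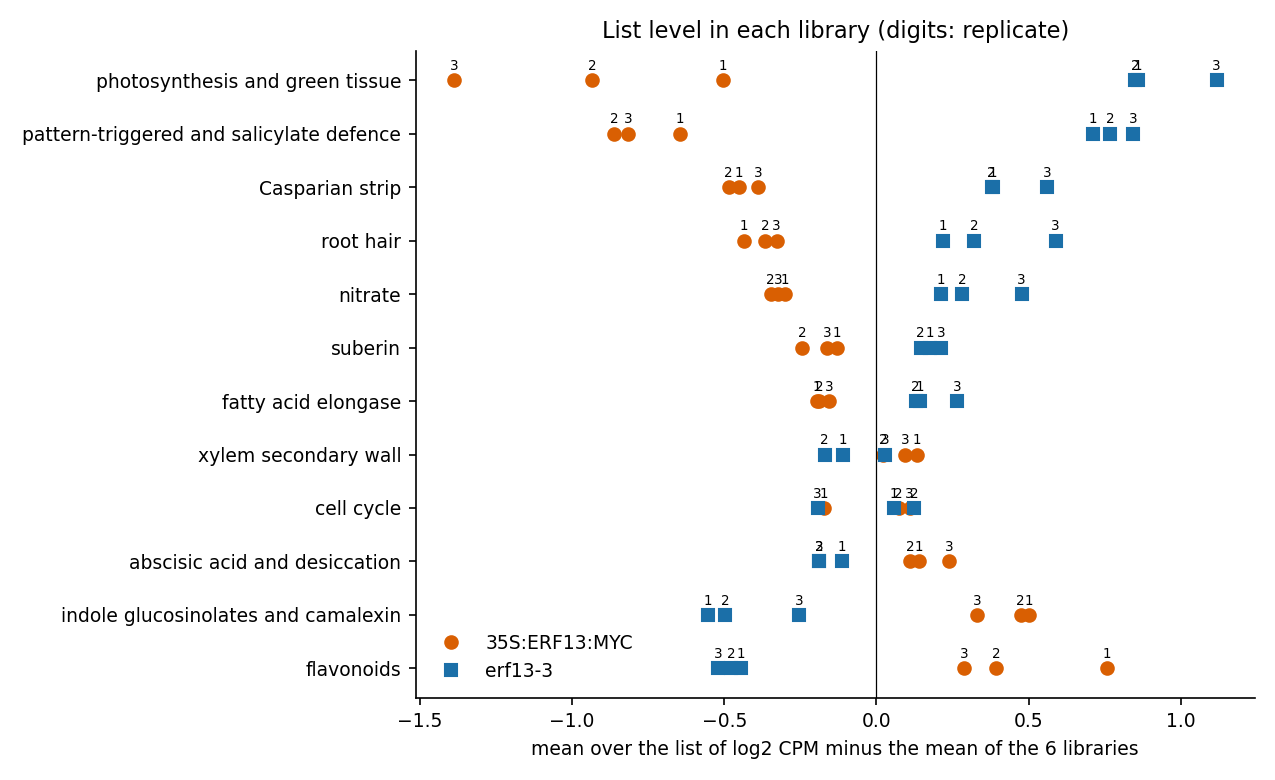
Mean over the tested members of 12 lists of log2 CPM minus the mean of the 6 libraries, for each library; orange circles are 35S:ERF13:MYC, blue squares erf13-3, and digits the replicate number. Photosynthesis runs from -1.39 to -0.50 in 35S:ERF13:MYC and from 0.85 to 1.12 in erf13-3, while the libraries of the lines overlap for the cell cycle and xylem lists.

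The cell cycle list held few calls. Of 15 cell cycle genes 12 were not called, 2 were lower and 1 was higher, and their log2 fold changes lay between -0.57 and 0.29. MCM5 and MCM3, of the replication helicase, were at -0.35 and -0.47, and CDT1A at 0.29. Clock genes had 4 higher and 1 lower of 11. LHY, a morning factor, was lower at a log2 fold change of -0.63 (SE 0.09) and PRR5 was higher by 1.18 (SE 0.20). Of 9 hypoxia genes, 2 were higher and 3 lower.

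Families taken whole by name showed both directions within each. Of all genes tested 23.5% were higher and 18.8% lower, so calls on both sides are no trait of a family. WRKY factors, many of which act in defence, were higher in 23 and lower in 11 of 54 tested. NAC factors were higher in 17 and lower in 23 of 78, and MYB factors higher in 28 and lower in 25 of 85. Cytochrome P450 genes had 64 higher and 48 lower of 167. CLE peptide genes were higher in 11 and lower in 4 of 18, with CLE14 at 2.08 FPKM on average in 35S:ERF13:MYC and 15.4 FPKM in erf13-3, and CLE12 at 6.02 against 1.14 FPKM. XTH wall enzymes were higher in 14 and lower in 5 of 27. Of the GSTU glutathione transferases, 12 were higher and 7 lower of 25: GSTU9 was at 6.12, 8.15 and 10.6 FPKM in 35S:ERF13:MYC and 84.5, 89.7 and 86.5 FPKM in erf13-3, opposite to GSTU13. GSTF10, of the phi class, was at 917.6, 832.1 and 787.1 FPKM against 180.7, 177.8 and 170.3 FPKM. UGT72E1, a glucosyltransferase of lignin precursors, was at 11.2, 10.2 and 12.99 FPKM against 126.3, 127.7 and 161.3 FPKM, and UGT74F2, a salicylate glucosyltransferase, at 4.1, 4.47 and 5.73 FPKM against 35.5, 40.0 and 39.2 FPKM. These members of families were picked out after their values were seen.

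The largest differences were close to on or off. Of all genes tested, 20 had no count in 35S:ERF13:MYC and at least 10 counts in every erf13-3 library, and 9 had the reverse. Of the first kind, AT4G04990 had 117, 113 and 130 counts in erf13-3, at least 40.0-fold above the floor. Of the second, AT1G34047 had 221, 178 and 200 counts in 35S:ERF13:MYC, at least 66.6-fold above it, and the peroxidase gene PRXCA had 58, 34 and 30. GA2OX7, which inactivates gibberellin precursors, had 48, 25 and 15 counts in 35S:ERF13:MYC and none in erf13-3. Among genes with enough counts on both sides for a fitted fold change, PRF4, a profilin, was at 0.41, 0.33 and 0.49 FPKM in 35S:ERF13:MYC and 30.3, 31.2 and 34.6 FPKM in erf13-3 (fitted log2 ratio 6.25, SE 0.18, adjusted p = 8.7e-09). PUP7, a purine permease, was at 39.4, 40.0 and 38.5 FPKM against 0.13, 0.04 and 0.31 FPKM (log2 fold change -7.87, SE 0.22, adjusted p = 7.3e-09). BGLU32, a beta-glucosidase, had 93, 103 and 79 counts in 35S:ERF13:MYC and 0, 1 and 0 in erf13-3. CYP716A2, a triterpene-modifying P450, was at 0.24, 0.08 and 0 FPKM against 7.83, 9.96 and 10.6 FPKM.

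The 5 most abundant genes at least 2-fold apart were AT1G21313, DR4, AT4G23670, AT2G43150 and TIP1;2. AT1G21313, which the annotation gives no symbol, was at 6002, 8697 and 5974 FPKM in 35S:ERF13:MYC and 2828, 2652 and 3907 FPKM in erf13-3, so replicate 2 of the overexpressor stood above the rest. DR4 was at 1920, 1734 and 1806 FPKM against 3693, 3919 and 4324 FPKM. AT4G23670 had a log2 fold change of -1.75 (SE 0.11) and AT2G43150 of -1.62 (SE 0.13).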

How the data were processed

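RNA sequencing of 9 root libraries was deposited as 1 table per library with an expected count and an FPKM value per gene, estimated and normalised by the authors per the file headers. Which aligner, strand setting and genome build were used is not stated in the labels or file headers. Tables were joined by gene, with 0 for a gene that a table does not list, and 23945 of 24140 genes were found in RefSeq, whose build TAIR10.1 is the source of names and promoters. Coordinates in the authors' deposited comparison tables lay within 2000 bases of those of TAIR10.1 at both ends for 99.5% of 2544 genes. Those tables were used for nothing else.

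Expected counts of the 6 libraries of the 2 lines were rounded and tested in edgeR 4.0.16 (R 4.3.3) with TMM scaling, a filter at 10 counts and the quasi-likelihood test, with line as the single term and 4 residual degrees of freedom. A gene was called at an adjusted p under 0.05. Tests on log2 values of FPKM in limma 3.58.1, and DESeq2 1.42.0, were alternatives. SE is the log2 fold change over the root of F. Fitted fold changes of 29 genes without a count in 1 line are not printed in the text. They did enter the ranking of genes, the classes by fold change and the figures. Bounds given for such genes are over 3 counts per library. Tested on simulated data for this comparison (19375 genes), the script called 94.9% of 99 genes changed by 1 and 100% of 98 changed by 2 on the log2 scale, with 8 false calls. Few genes were changed in the simulation, evenly by direction, and each gene was drawn at the trend of the dispersion. In the real libraries 42.4% of genes were called, so the simulation was an easier setting than these data. Intervals and floors cover counting error only. No 2 libraries agreed within sampling noise. Reads of near-identical genes, and of genes that overlap, may be split uncertainly.

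Genes were named by rule: the study's 2 genes, the 10 largest differences in each direction with a symbol, a mean of at least 1 FPKM and no overlap, the 5 most abundant at least 2-fold apart, up to 3 called members of smallest p per list, and up to 5 per direction at 0 in 1 line. Of the 110 genes that the rule named and that were tested, some are not given in the text, and which are given was a choice. CYP71B3, CYP76G1, WAKL4, ZFP10 and NAC074, among the largest differences higher in erf13-3, were left out. Other genes given with values fall outside this rule and were picked by choice. Among them are IRT1, FRO2, MYB51, FRK1, MYB36, CER1 and PEN3. Members and lists were chosen with earlier results of these data known. Names in lists without an annotated symbol are given as loci.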

Additional observations from a re-analysis of the deposited data

How the results depend on the processing

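The count of 8272 called genes lay between 7130 (DESeq2) and 8467 (no filter on low counts) over the other tools, scalings, filters and the fit with all 9 libraries, and between 6499 and 8064 when 1 library was left out, lowest without replicate 2 of 35S:ERF13:MYC. Genes at least 2-fold higher numbered 1121 to 1844 and lower 675 to 1118, both lowest by limma on log2(FPKM + 1), which shrinks low genes. With the replicate number as a block 7689 genes were called, 1609 at least 2-fold higher and 987 lower. Same-numbered libraries of the lines correlated in their deviations at -0.061, 0.16 and -0.13. Pairs with unlike numbers reached -0.25 and 0.25. With 3 libraries per line, these values cannot show whether libraries shared growth or handling. ERF13 and KCS16 kept their direction and call in all 15 alternatives. Of 110 named genes, BGLU42, MCM5, MCM3 and CDT1A lost the call in at least 1, and none changed direction. List medians changed sign for 4 of 30 lists: iron uptake (-0.28 to 0.03), aquaporins (-0.03 to 0.17), squalene epoxidases (-0.07 to 0.10) and type-A response regulators (-0.04 to 0.12). The photosynthesis median was 1.59 to 2.03, highest without replicate 1 of 35S:ERF13:MYC, and the defence median 0.66 to 1.23. The GCC shares moved with the motif and the window. With AGCCGCC in place of GCCGCC they were 0.615% of all promoters, 0.0615% of the higher and 1.92% of the lower genes, and in a 500-base window, chosen after seeing the data, 4.39%, 1.97% and 7.89%. The order lower, all, higher was the same in each. Genes under about 10 counts per library were not tested, so small differences there were not detectable at this depth.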

Other observations

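PUP7, the purine permease gene with one of the largest falls, has neighbours on chromosome 4 that were also lower in erf13-3, and they were looked at after its value was seen. PUP8 was at 2.16, 1.45 and 1.64 FPKM in 35S:ERF13:MYC and had no count in erf13-3. AT4G18203, which overlaps PUP7 in the annotation so that reads may be shared, was at 74.9, 66.7 and 56.4 FPKM against 0 in all 3 libraries. AT4G18205, with a GCC core in its promoter, was at 16.2, 13.9 and 14.6 FPKM against 0.46, 0.36 and 1.16 FPKM, and PUP10 at 2.40, 2.02 and 2.56 FPKM against 0.06, 0.16 and 0 FPKM. PUP6 was too low to be tested, at 0.05 to 0.28 FPKM in 35S:ERF13:MYC and 0 in erf13-3.

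Cell wall genes picked out after their values were seen also differed. EXPA1, an expansin that loosens walls, was at 71.5, 58.1 and 64.5 FPKM in 35S:ERF13:MYC and 11.2, 14.1 and 15.6 FPKM in erf13-3. XTH20 was at 22.4, 19.2 and 15.6 FPKM against 3.57, 2.03 and 2.93 FPKM, while XTH26 was higher in erf13-3. Their families did not follow EXPA1 and XTH20. Of 27 XTH genes tested 14 were higher and 5 lower, and of 15 EXPA genes 5 were higher and 5 lower. Over all genes tested, 23.5% were higher and 18.8% lower. CYP81D11, a P450 induced by foreign chemicals, was at 35.0, 41.8 and 52.0 FPKM against 256.4, 245.2 and 269.5 FPKM.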
